A study of Mus musculus with 24 samples.

Results

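A set of 9 megakaryocyte and platelet genes was followed in sorted mouse bone marrow cells, by taking the rows of the deposited normalised counts that carry their symbols. They were, of 26267 genes in the table, Itga2b, Itgb3, Gp1ba, Gp1bb and Gp9 (surface receptors), Pf4 and Vwf (granule proteins) and Fli1 and Nfe2 (transcription factors). All 9 had a row and all 9 passed the filter on low values, which asked for a normalised count of 10 or more in 2 or more libraries and kept 12628 genes. The cells were LSK cells, the marrow fraction that lacks lineage markers, carries Sca-1 and Kit and contains the blood stem cells. There were 4 genotypes: WT, the Fancg knockout FancgKO, the Mdm4 transgenic Mdm4Tg, and FancgKO_Mdm4Tg with both. Each was given either PBS or poly(I:C), which mimics viral double-stranded RNA and sets off an interferon response. With PBS there were 4 libraries of WT, 4 of FancgKO, 3 of FancgKO_Mdm4Tg and 3 of Mdm4Tg, and with poly(I:C) 3, 3, 2 and 2. No agent or allele besides these is named for any group. The labels give no dose, time after injection, age, promoter of the transgene or number of mice per library. Nothing states that libraries came from separate mice, and the p-values describe the spread among these libraries, which may be technical.

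Megakaryocytes are the marrow cells that shed platelets. GATA and ETS family factors, Fli1 among the latter, switch on the platelet receptor and granule genes as the cells mature, and NF-E2, of which Nfe2 encodes a subunit, acts late, in platelet release. Part of the stem cell pool already carries transcripts of this programme, Vwf and Itga2b among them, and such stem cells are known to give rise to platelets readily. Inflammation by interferon is known to raise the output of this route.

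The promoters of 5 of the 9 genes were found in RefSeq (GRCm38.p6), and 3 are shown because their genes carry the main contrasts described here: Pf4 was the gene called with poly(I:C), Itga2b split the libraries most cleanly by their titles, and Gp1ba held both a GATA site and an ETS core. Each stretch ends 1 base before the transcription start given by RefSeq and is read on the strand of its gene. Capitals mark a GATA site (the letters GATA after A or T and before A or G) or an ETS core (GGAA after A and before G, or GGAA after CC) on either strand, so that a site on the other strand appears as its reverse complement. The stretch of Itga2b is short because most of the rest of its window lies in annotated exons. Of that window 70 bases lie outside exons, and their longest run, of 59 bases, is shown. This stretch lies inside the annotated span of Itga2b given below, which begins further upstream. It therefore precedes the RefSeq start only, and not the start of the annotated gene.
Pf4, chr5:90772185-90772434, plus strand: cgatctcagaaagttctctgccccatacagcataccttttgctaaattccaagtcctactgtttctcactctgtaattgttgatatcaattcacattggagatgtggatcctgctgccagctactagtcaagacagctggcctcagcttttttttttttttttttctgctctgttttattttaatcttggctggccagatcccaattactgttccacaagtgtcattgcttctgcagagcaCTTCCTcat
Gp1ba, chr11:70638872-70639121, plus strand: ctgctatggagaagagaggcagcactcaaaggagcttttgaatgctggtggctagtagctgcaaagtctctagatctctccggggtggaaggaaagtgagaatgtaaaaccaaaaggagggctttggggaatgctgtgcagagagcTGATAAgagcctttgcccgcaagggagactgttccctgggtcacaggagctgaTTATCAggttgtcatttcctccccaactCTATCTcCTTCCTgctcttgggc
Itga2b, chr11:102469884-102469942, minus strand: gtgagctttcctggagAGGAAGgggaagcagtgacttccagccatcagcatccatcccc

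In Pf4 the ETS core began 9 bases before the start, in Gp1ba 16 and, in the window of Gp9, also 16. Itga2b held it 43 bases before the start and again at 125, the latter in the exonic stretch that is not shown. Gp1ba held GATA sites at 104, 51 and 23 bases before the start, and Gp1bb held 1 at 22. The window of Gp1bb lies wholly in annotated exons. The NF-E2 core TGAGTCA was not found in the 5 windows. Over 32851 RefSeq windows of the same length, 26.5% held a GATA site, 38.2% an ETS core, 9.16% both and 4.46% the NF-E2 core. No site overlapped another. A match of letters describes the window and is not evidence of binding.

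Levels can be compared between genes only per length, here as normalised count per kilobase of annotated exon. Fli1 was the highest, with a median of 167.3 over the 24 libraries (142.9 to 199.4). Pf4 followed at 94.3 (10.4 to 256.2), with by far the widest range, and then Nfe2 at 81.1 (65.0 to 103.9). Pf4 and Nfe2 changed places from library to library, with Pf4 the higher in 13 of 24, whereas Nfe2 lay above Itga2b in all 24. Itga2b had a median of 37.1 (14.5 to 80.3) and Itgb3, the other chain of the fibrinogen receptor, 11.5 (5.76 to 22.6). Both chains were read in every library, and Itga2b exceeded Itgb3 in all 24. The 3 subunits of the receptor for von Willebrand factor, and Vwf itself, were the lowest. Gp9 was at 7.00 (0 to 24.5), Vwf at 4.12 (0.712 to 16.3), Gp1ba at 2.77 (0.976 to 7.07) and Gp1bb at 1.71 (0 to 6.79), and the ranges of all 8 pairs of neighbours in this order overlapped. Gp1bb and Gp9 rested on 0 to 17 and 0 to 21 reads a library and Gp1ba on 1 to 26, so a change in these 3 was measured with little precision. A library at 0 allows up to 3 reads. Of the exon bases of Gp1bb, 91.1% are shared with its neighbour Sept5 on the same strand (0 to 2.66 in these libraries), so its count is uncertain.

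**Figure D1:**
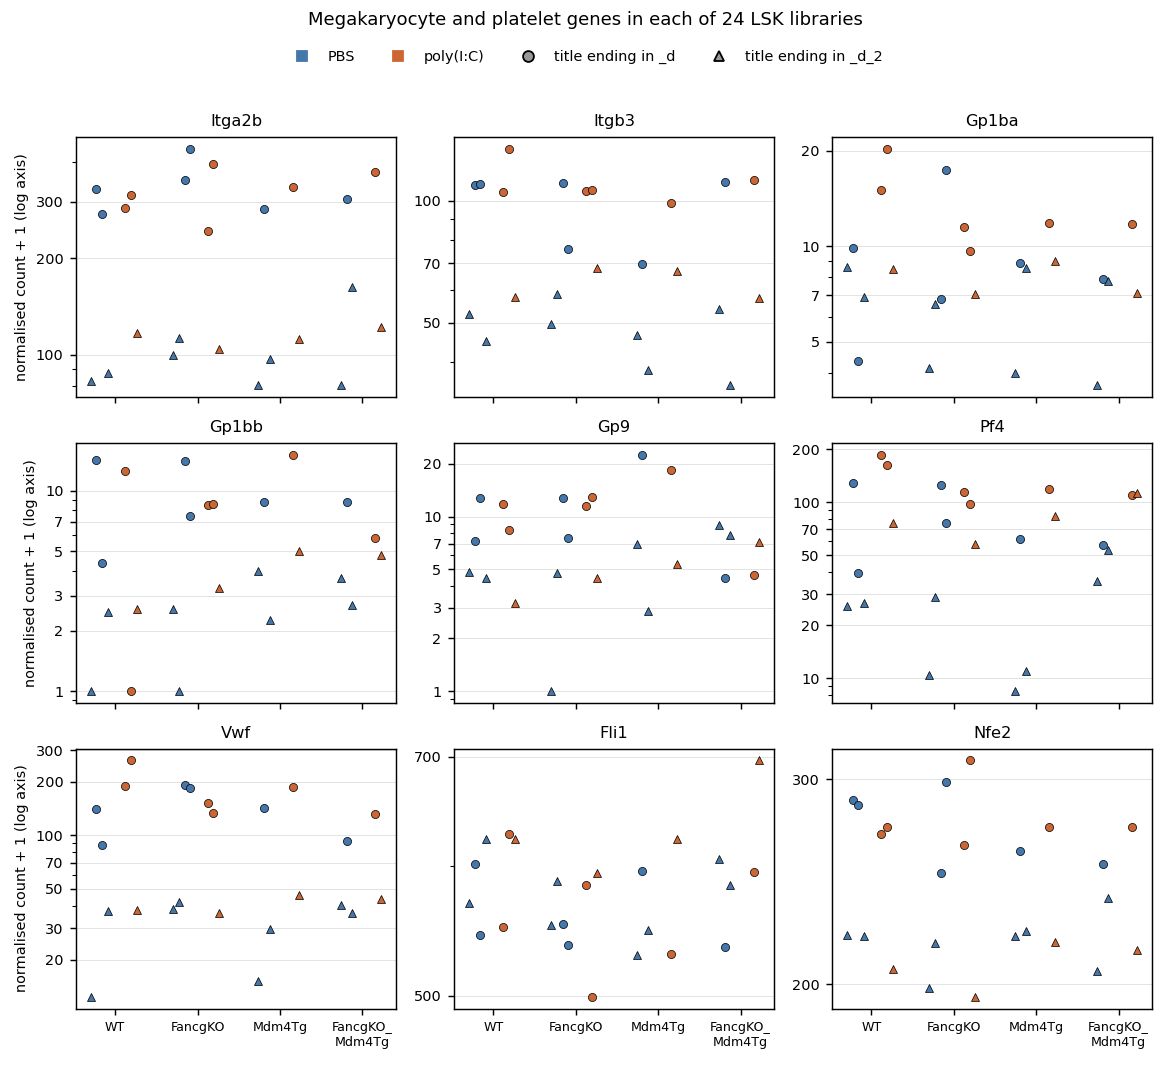
Normalised count plus 1 (log axis) of each of the 9 genes in the 24 libraries, by genotype, with PBS (blue) and poly(I:C) (orange) and with circles for titles ending in _d and triangles for titles ending in _d_2. For Itga2b the circles lie between 243.2 and 437.8 and the triangles between 79.2 and 161.5, whichever the treatment, and Fli1 shows no such split.

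Depth was 807686 to 8229715 reads a library, with a median of 2583130. Kit, which the sort requires, was at 1483 to 2414 normalised counts in every library, whereas Ly6a, which encodes Sca-1, was at 11.7 to 45.9. Mdm4 lay between 5023 and 7105 in the 10 Mdm4Tg and FancgKO_Mdm4Tg libraries and at 750.9 to 1293 in the other 14. Fancg ranged from 26.1 to 71.4 in the 12 libraries lacking it by label and from 41.3 to 78.4 in the other 12, as a total over all exons that cannot check a partial deletion. The titles end in _d for the 12 libraries numbered 6 and 7 and in _d_2 for the 12 numbered 2, 4 and 8. What the suffix stands for is not stated. It bears on every result here, because 6 of 12 libraries with _d and 4 of 12 with _d_2 had received poly(I:C). Xist exceeded 100 in 6 libraries, all with _d, and was at most 1.57 in the libraries with _d_2. It was at 362.5 in FancgKO number 7 with poly(I:C) and at 5943 to 20210 in the others above 100, so this cut joins unlike levels. The high ones were numbers 6 and 7 of FancgKO with either treatment and of WT with poly(I:C), none with the Mdm4 transgene. In WT with PBS the same numbers were at 24.8 and 3.35. Among the WT libraries with _d, treatment and Xist level therefore cannot be told apart.

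The first question was how poly(I:C) changes these genes in the stem and progenitor fraction. Pf4 (ENSMUSG00000029373, chr5:90772435-90773383 of mm10, plus strand), a platelet chemokine stored in the alpha granules, rose, and it was the 1 of the 9 genes called when the difference was averaged over the 4 genotypes. For comparison, 23.6% of all 12628 genes were called in this contrast, 11.9% as higher and 11.6% as lower. All 9 log2 differences were above 0, with a median of 0.43 against 0.01 over all genes tested. With the title suffix described above as a covariate, 8 of the 9 were above 0 and their median was 0.16. In these bulk samples, more cells with such transcripts and more transcripts per cell cannot be told apart.

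With PBS, the normalised count of Pf4 was 24.8, 126.5, 38.5 and 25.8 in WT (numbers 2, 6, 7 and 8), 9.40, 27.9, 124.2 and 75.1 in FancgKO (2, 4, 6 and 7), 7.47, 60.9 and 10.1 in Mdm4Tg (2, 7 and 8) and 34.5, 56.1 and 52.7 in FancgKO_Mdm4Tg (2, 7 and 8). After poly(I:C) it was 184.7, 161.2 and 75.1 in WT (6, 7 and 8), 112.4, 96.6 and 56.5 in FancgKO (6, 7 and 8), 117.6 and 82.5 in Mdm4Tg (7 and 8) and 109.0 and 111.3 in FancgKO_Mdm4Tg (7 and 8). The lowest values all stood in PBS libraries, 10 of 14 of which lay below every poly(I:C) library, and the groups overlapped through 4 PBS libraries, each titled _d. The log2 difference of Pf4 was 1.59 ± 0.38 (SE, n = 10 and 14, limma adjusted p = 0.00606). Leaving out each library in turn kept it between 1.43 and 1.81, with limma adjusted p-values of 0.00153 to 0.0215.

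Vwf (ENSMUSG00000001930, chr6:125546774-125686679 of mm10, plus strand) encodes the large adhesive protein that tethers platelets to damaged vessel walls. Its normalised count with PBS was 11.4, 138.9, 87.0 and 36.7 in WT, 37.6, 41.0, 191.4 and 182.9 in FancgKO, 14.2, 141.4 and 28.9 in Mdm4Tg and 39.8, 92.3 and 35.7 in FancgKO_Mdm4Tg, in the same order of numbers as for Pf4. With poly(I:C), Vwf stood at 188.0, 261.7 and 36.9 in WT, 150.3, 132.4 and 35.7 in FancgKO, 185.1 and 45.3 in Mdm4Tg and 130.6 and 42.9 in FancgKO_Mdm4Tg. High and low values occurred under both treatments, and the libraries numbered 6 and 7 were the high ones in each group. The log2 difference of Vwf, 0.79 ± 0.48, did not pass (limma adjusted p = 0.240), and with the replicate number as a block it was 0.27 ± 0.17 (limma adjusted p = 0.240).

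Itga2b (ENSMUSG00000034664, chr11:102453297-102470122 of mm10, minus strand) encodes CD41, the alpha chain of the platelet fibrinogen receptor. Its normalised count with PBS was 82.0, 328.3, 274.3 and 86.7 in WT, 98.7, 111.8, 349.1 and 437.8 in FancgKO, 79.2, 284.8 and 95.6 in Mdm4Tg and 79.6, 305.3 and 161.5 in FancgKO_Mdm4Tg. In poly(I:C) libraries, Itga2b was at 285.3, 315.0 and 115.5 in WT, 243.2, 391.8 and 102.8 in FancgKO, 333.6 and 110.6 in Mdm4Tg and 371.4 and 120.8 in FancgKO_Mdm4Tg. None of the 10 poly(I:C) libraries lay above every PBS library. The log2 difference of Itga2b was 0.38 ± 0.37 (limma adjusted p = 0.466).

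Itgb3 (ENSMUSG00000020689, chr11:104608000-104670476 of mm10, plus strand) encodes the beta chain of the same receptor. Its normalised count with PBS was 51.5, 108.0, 108.7 and 44.1 in WT, 48.6, 57.8, 109.6 and 75.1 in FancgKO, 45.6, 68.8 and 37.1 in Mdm4Tg and 53.0, 110.4 and 34.0 in FancgKO_Mdm4Tg. The values of Itgb3 with poly(I:C) were 103.9, 133.1 and 57.0 in WT, 104.9, 105.3 and 67.1 in FancgKO, 97.6 and 65.9 in Mdm4Tg and 111.4 and 56.6 in FancgKO_Mdm4Tg. Of the PBS libraries, 7 of 14 lay below every poly(I:C) library. Its log2 difference of 0.47 ± 0.22 did not pass (limma adjusted p = 0.126), and it passed at 0.58 without FancgKO_Mdm4Tg_PBS replicate 7 (limma adjusted p = 0.0477).

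Gp1ba (ENSMUSG00000050675, chr11:70639122-70642036 of mm10, plus strand), Gp1bb (ENSMUSG00000050761, chr16:18620317-18622403 of mm10, minus strand) and Gp9 (ENSMUSG00000030054, chr6:87778072-87779768 of mm10, plus strand) encode subunits of the receptor for von Willebrand factor. Gp1ba, its ligand-binding chain, ranged up to 16.3 from a low of 2.65 under PBS and to 19.2 from 6.07 after poly(I:C), with 7 of 14 PBS libraries below every poly(I:C) library. The log2 difference of Gp1ba was 0.61 ± 0.27 (limma adjusted p = 0.101), and it passed at 0.71 without FancgKO_PBS replicate 7 (limma adjusted p = 0.0387). With the replicate block Gp1ba was at 0.39 ± 0.27 (limma adjusted p = 0.299). Gp1bb differed by 0.43 ± 0.52 and Gp9 by 0.27 ± 0.43 (limma adjusted p = 0.569 and 0.676). Gp1bb lay between 0 and 13.3 in PBS libraries and between 0 and 14.2 in poly(I:C) libraries. Gp9 lay between 0 and 21.6 and between 2.19 and 17.5, so the ranges overlapped for both.

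The 2 factors were nearly level. Fli1 (ENSMUSG00000016087, chr9:32422204-32542861 of mm10, minus strand), an ETS factor of megakaryocytes and stem cells, stood at 528.4 to 622.5 under PBS and at 498.2 to 695.3 after poly(I:C), a log2 difference of 0.06 ± 0.06 (limma adjusted p = 0.457). Nfe2 (ENSMUSG00000058794, chr15:103248212-103258403 of mm10, minus strand) was at 197.4 to 297.3 under PBS against 194.2 to 310.4 after poly(I:C), a difference of 0.05 ± 0.10 (limma adjusted p = 0.753). Of the 9 genes these had the smallest standard errors, and at 164 to 2022 and 77 to 703 reads a library they were also among the most deeply read.

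Taking libraries of 1 genotype and 1 replicate number together gave 9 pairs, 6 with _d and 3 with _d_2. Pf4 was higher after poly(I:C) in 8 of the 9, with a median log2 difference of 0.95 and a range from -0.14 (FancgKO, number 6) to 2.92 (Mdm4Tg, number 8). Itgb3, Vwf and Gp1ba were higher in 7 of 9 each, with medians of 0.36, 0.39 and 0.42. Itga2b and Gp1bb were higher in 5 of 9, Fli1 in 6, and Gp9 and Nfe2 in 4. The 2 pairs in which Vwf was lower were both FancgKO and both titled _d.

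**Figure D2:**
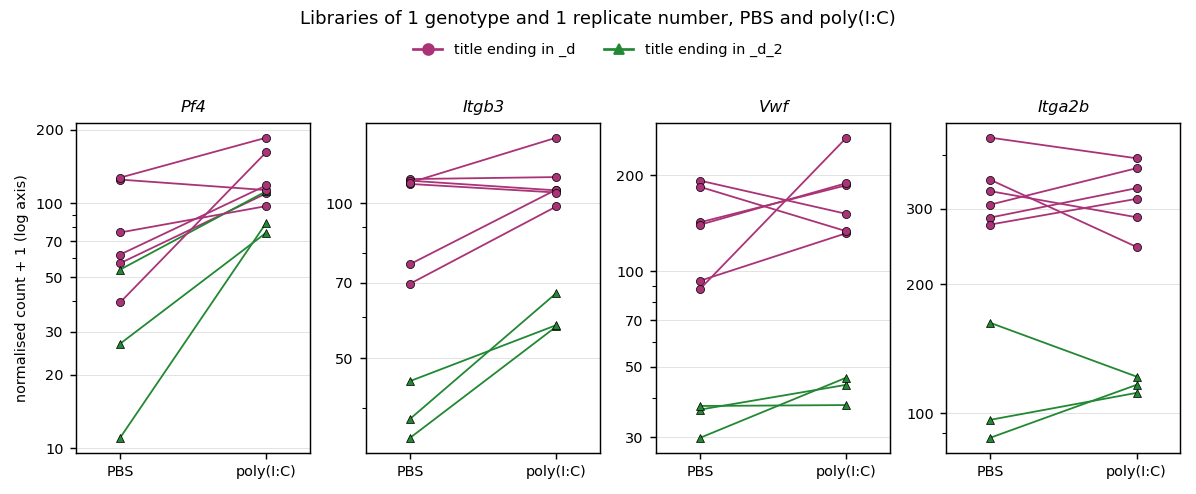
Normalised count plus 1 (log axis) of Pf4, Itgb3, Vwf and Itga2b with PBS and with poly(I:C), each line joining 2 libraries of 1 genotype and 1 replicate number (9 lines a panel). Pf4 goes up in 8 of 9 lines and Itga2b in 5 of 9, and the _d and _d_2 lines of Itga2b do not cross.

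The suffix of the title was then compared directly, a contrast added after the values had been seen. Libraries titled _d held more of 7 of the 9 genes than libraries titled _d_2, against 45.3% of all genes called in this contrast and 21.7% called as higher. Vwf was higher by 2.13 ± 0.17 on the log2 scale (limma adjusted p = 3.76e-09), Itga2b by 1.65 ± 0.10 (limma adjusted p = 4.42e-11) and Gp1bb by 1.62 ± 0.39 (limma adjusted p = 0.00183). Pf4 followed with 1.34 ± 0.25 (limma adjusted p = 1.65e-04), Gp9 with 1.20 ± 0.34 (limma adjusted p = 0.00605), Itgb3 with 0.92 ± 0.10 (limma adjusted p = 3.12e-07) and Nfe2 with 0.36 ± 0.05 (limma adjusted p = 1.38e-05). Gp1ba, at 0.57 ± 0.24, and Fli1, at -0.09 ± 0.05, did not pass (limma adjusted p = 0.0592 and 0.141). For Gp1ba, edgeR and DESeq2 on the recovered reads gave 0.67 and 0.66 and called it (edgeR adjusted p = 0.0173, DESeq2 adjusted p = 0.0253), so that these tools called 8 of the 9. For Itga2b, Itgb3, Vwf and Nfe2 every one of the 12 libraries with _d lay above every one with _d_2. How many of all genes separated in this way, or were called by edgeR and DESeq2, is not given here. The separation is therefore not read as particular to these genes. The means were 326.7 against 103.7 for Itga2b, 103.1 against 51.5 for Itgb3, 156.8 against 33.8 for Vwf and 273.8 against 213.5 for Nfe2. These p-values treat libraries of 1 number as replicates, although only 2 numbers carry _d and 3 carry _d_2, so a property of single numbers and one of the suffix cannot be told apart.

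The split was present within each treatment. Among PBS libraries 6 of 8 tested genes were called (33.8% of all genes), with Itga2b at 274.3, 316.8 and 437.8 (lowest, median and highest) in the 6 with _d and at 79.2, 91.2 and 161.5 in the 8 with _d_2. Among poly(I:C) libraries 6 of 9 were called (34.4% of all genes), with Itga2b at 243.2, 324.3 and 391.8 in the 6 with _d and at 115.5, 102.8, 110.6 and 120.8 in the 4 with _d_2. Both times the suffixes did not overlap for this gene. In the 18 libraries with low Xist 6 of 9 were called (31.5% of all genes), and the 6 of these libraries with _d held Itga2b at 274.3 to 371.4, as high as the 6 with high Xist at 243.2 to 437.8. With the Xist level as a covariate 4 of the 9 passed (Itga2b, Itgb3, Nfe2 and Vwf), and the share of all genes in that fit is not given here.

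With the suffix as a covariate in the poly(I:C) contrast, 2 of the 9 genes were called, against 34.8% of all genes. Pf4 was higher by 1.37 ± 0.26 (limma adjusted p = 5.63e-04) and Itgb3 by 0.32 ± 0.10 (limma adjusted p = 0.0222). The estimate for Itga2b shrank to 0.10 ± 0.10 (limma adjusted p = 0.445) and that for Vwf to 0.43 ± 0.17 (limma adjusted p = 0.0536). Within the 12 libraries with _d alone, limma called 0 of 12085 genes (0%), with 1389 at an unadjusted p under 0.05, Pf4 and Vwf among them. Pf4 there had a log2 difference of 0.82 ± 0.27 (limma adjusted p = 0.374), with values of 38.5, 68.0 and 126.5 (lowest, median and highest) in 6 PBS and 96.6, 115.0 and 184.7 in 6 poly(I:C) libraries, which overlapped. Within the 12 with _d_2, where 35.5% of all genes were called, Pf4 was the 1 gene called of 6 tested, at 1.93 ± 0.27 (limma adjusted p = 2.23e-04). Its values with _d_2 were 7.47, 25.3 and 52.7 (lowest, median and highest) in 8 PBS libraries and 75.1, 56.5, 82.5 and 111.3 in 4 poly(I:C) libraries, with no overlap. The difference between these responses did not pass for any of the 9 genes, against 0.103% of all genes, with Pf4 at -1.10 ± 0.46 (_d minus _d_2, limma adjusted p = 0.184).

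**Figure D3:**
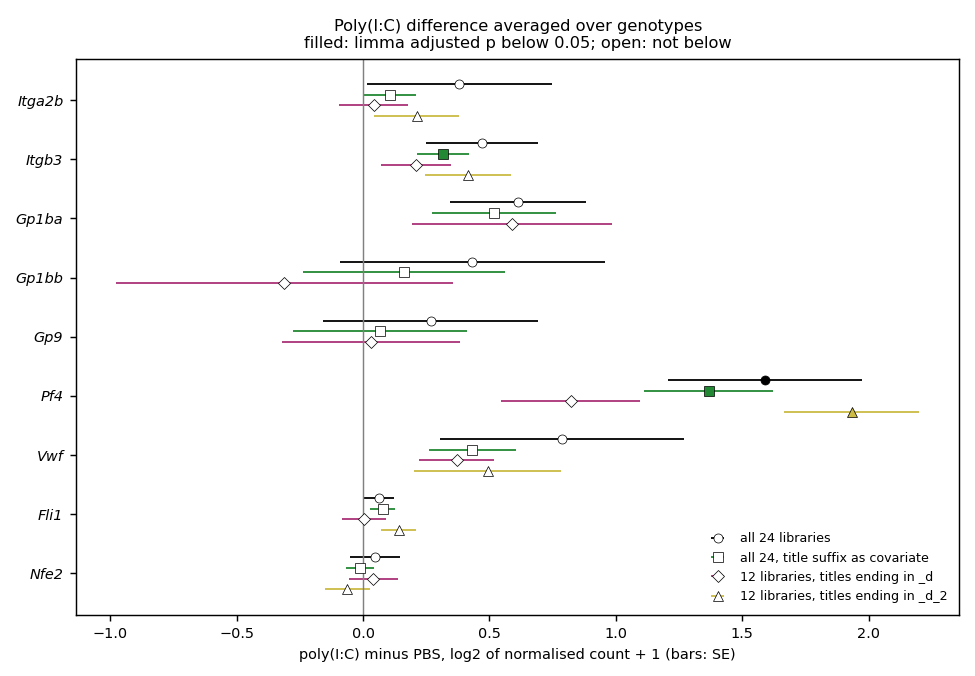
Log2 difference between poly(I:C) and PBS (bars show the SE) of the 9 genes in all 24 libraries, with the title suffix as a covariate, and within each suffix, filled where the limma adjusted p was below 0.05. Pf4 is filled in 3 of its 4 fits, from 0.82 (open, _d) to 1.93 (_d_2), and Itga2b moves from 0.38 to 0.10 once the suffix is a covariate.

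Genes of the same pathway that were not among the 9 were described from a list of 75, of which 74 had a row and 64 were tested. With poly(I:C) 27 of the 64 were called, 12 as higher and 15 as lower, with a median log2 difference of 0.05. Over all genes 11.9% were higher and 11.6% lower. With the suffix as a covariate all 27 kept their direction and their call. In that fit 17 of the 64 were called as higher and 18 as lower, 54.7% together, against 34.8% of all genes. In the 12 libraries with _d alone all 27 kept their direction and none was called, and in those with _d_2 25 of the 27 were called.

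Among receptors and adhesion molecules 3 of 9 tested genes rose and 2 fell (55.6% called, against 23.6% of all genes). Fcer1g, the signalling chain of the collagen receptor that other blood cells carry too, had a median of 19.1 with PBS and 48.0 with poly(I:C), a log2 difference of 1.35 ± 0.25 (limma adjusted p = 0.00108). Gp5, which joins the receptor for von Willebrand factor, was higher by 1.05 ± 0.33 (limma adjusted p = 0.0257) and the tetraspanin Cd9 by 0.52 ± 0.14 (limma adjusted p = 0.0128). Gp5 was also higher with _d than with _d_2, by 1.33. The junction protein Esam, a marker of stem cells as well as of platelets, fell by 1.03 on the log2 scale, from a median of 31.0 to 12.9 (limma adjusted p = 0.00367). Itga2, the alpha chain of a collagen receptor, fell by 0.68 (limma adjusted p = 0.00412).

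Of the signalling genes 3 of 15 rose and 6 fell (60% called, against 23.6% of all genes). The thromboxane receptor gene Tbxa2r fell by 0.88 (limma adjusted p = 0.00447), Plek, a substrate of protein kinase C in platelets, by 0.36 (limma adjusted p = 0.00836) and Plcg2, a phospholipase of receptor signalling, by 0.34 (limma adjusted p = 0.0151). P2ry1, an ADP receptor, rose from a median of 56.6 to 103.1, a log2 difference of 0.90 ± 0.15 (limma adjusted p = 6.89e-04). F2rl2, a thrombin receptor gene, rose by 1.27 ± 0.38 (limma adjusted p = 0.0206) and the small GTPase gene Rap1b by 0.30 ± 0.08 (limma adjusted p = 0.0109).

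Granule genes other than Pf4 and Vwf gave 2 higher and 1 lower of 12. This share called, 25%, was near the 23.6% of all genes. F13a1, coagulation factor XIII A, which monocytes also make, went from a median of 170.8 to 734.7, a log2 difference of 2.08 ± 0.41 (limma adjusted p = 0.00177). The protease inhibitor gene Serpine2 rose by 1.59 ± 0.33 (limma adjusted p = 0.00232), and Mmrn1, which encodes a binding protein of factor V, fell by 0.73 (limma adjusted p = 0.00502). Ppbp, a chemokine gene of late megakaryocytes beside Pf4, did not pass the filter, with a mean normalised count of 2.04, nor did Tubb1, the platelet tubulin gene, at 0.705. Of 6 cytoskeleton and membrane genes, Cavin2 rose by 0.80 ± 0.28 (limma adjusted p = 0.0424) and was the 1 called, a share (16.7%) below that of all genes. Of 2 enzyme genes, Tbxas1, the thromboxane synthase, fell by 0.63 (limma adjusted p = 0.0270).

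The factors gave 3 higher and 5 lower of 20 (40% called, against 23.6% of all genes). Gata1, the driver of megakaryocyte and red cell genes, had a median of 30.4 under PBS (5.72 to 78.4) against 69.6 after poly(I:C) (49.7 to 100.1), a log2 difference of 1.44 ± 0.29 (limma adjusted p = 0.00210). Gata2, its relative in stem cells, rose by 0.43 ± 0.13 (limma adjusted p = 0.0245) and Srf by 0.46 ± 0.14 (limma adjusted p = 0.0252). Ets1 fell by 1.06, from a median of 83.1 to 37.1 (limma adjusted p = 0.00218). Meis1 and Erg, which also maintain stem cells, fell by 0.69 (limma adjusted p = 0.00405) and 0.54 (limma adjusted p = 9.40e-04), the latter an ETS relative of Fli1. Mef2c, a MADS box factor, fell by 0.31 (limma adjusted p = 0.0221).

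**Figure D4:**
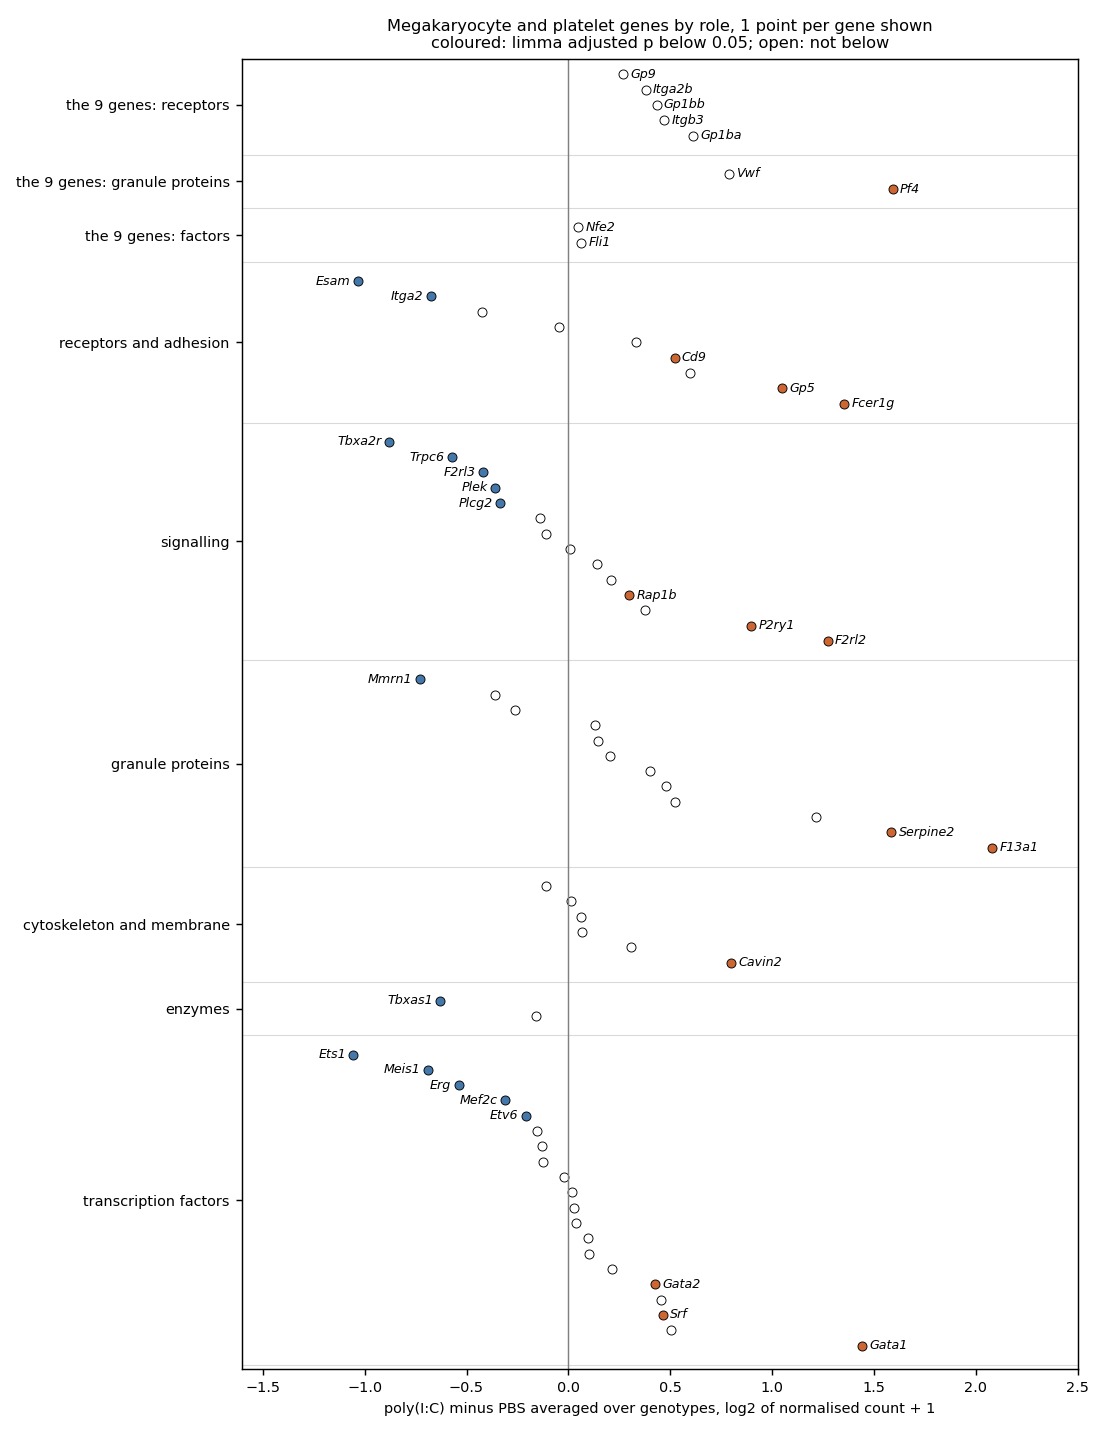
Log2 difference between poly(I:C) and PBS, averaged over genotypes, of the 9 genes and of the 64 other pathway genes tested, by role, coloured orange (higher) or blue (lower) where the limma adjusted p was below 0.05. Pf4 is the coloured point among the 9, and 12 of the others are higher and 15 lower, 1 of which is not drawn.

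By title suffix, 40 of the 64 pathway genes were called, 37 of them higher with _d, with a median log2 difference of 0.43, against the 45.3% and 21.7% of all genes given above. Granule genes gave 8 higher of 12, receptors 6 of 9, cytoskeleton and membrane genes 5 of 6, enzymes 2 of 2, signalling genes 7 of 15 and factors 9 higher and 3 lower of 20. The share called of the signalling genes, 46.7%, was near that of all genes. Gata1 was higher with _d by 1.05 and Gata2 by 0.50 (limma adjusted p = 1.07e-04 and 7.62e-06), and Ets1 was lower by 0.87 (limma adjusted p = 1.50e-06).

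Markers of other blood cells were called in both contrasts. With poly(I:C) all 6 tested neutrophil precursor genes were higher, as were 5 of 5 monocyte genes, 5 of 6 red cell genes and 3 of 5 mast cell genes. Lower were 3 of 5 lymphoid genes, 6 of 9 stem cell genes and 3 of 4 genes of the sort gate. Of all genes 11.9% were called as higher and 11.6% as lower. The log2 differences were 1.78 for Mpo and 1.75 for Ctsg (neutrophil precursors), 0.52 for Irf8 and 1.95 for Ccr2 (monocytes), 2.47 for Car1 and 0.23 for Tfrc (red cells), and 0.86 for Cpa3 and 1.92 for Ms4a2 (mast cells). They were -1.01 for Satb1 and -1.71 for Dntt (lymphoid), -0.56 for Angpt1 and -1.17 for Hlf (stem cells) and -0.26 for Kit and -0.46 for Cd34 (sort gate), and all but that of Tfrc passed. Each marker list had a summed normalised count well above 0 in every library. Among single markers, Hba-a1, a globin gene of red cells, had normalised counts of 0 to 2.59 under PBS, with 9 of 14 libraries at 0, and 0 to 2.17 with poly(I:C), with 4 of 10 at 0. Cd79a, a B cell gene, had 0 to 1.96 under PBS, with 7 of 14 at 0, and 0 to 1.67 with poly(I:C), with 3 of 10 at 0.

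By title suffix, 4 of 6 neutrophil precursor genes were higher with _d, 4 of 5 lymphoid genes and 3 of 4 of the sort gate were lower, and 2 of 6 red cell genes were higher and 1 lower. The share called of the red cell genes, 50%, was near the 45.3% of all genes. Of the stem cell genes 2 of 9 were higher and 1 lower, and 1 of 5 monocyte and 1 of 5 mast cell genes were higher. In these 3 lists the share called was below the 45.3% of all genes. The summed levels are given by suffix as well. For neutrophil precursors they were 3639 to 13550 with _d and 1423 to 3251 with _d_2 under PBS, and 5706 to 22410 and 8213 to 13210 with poly(I:C). Red cell genes summed to 487.3 to 958.2 and 549.6 to 1066 under PBS, and to 531.9 to 1765 and 1302 to 1985 with poly(I:C). Monocyte sums were 391.5 to 1063 and 232.4 to 510.4 under PBS, and 480.8 to 1605 and 1327 to 2111 with poly(I:C). The lymphoid sums were 1117 to 2166 and 2081 to 3948 under PBS, and 614.3 to 1143 and 910.4 to 1528 with poly(I:C). Stem cell sums were 1819 to 2933 and 2848 to 4427 under PBS, and 1290 to 2777 and 1572 to 2024 with poly(I:C). Mast cell sums were 182.9 to 432.7 and 109.9 to 286.4 under PBS, and 353.9 to 564.8 and 481.8 to 647.6 with poly(I:C). Under PBS the neutrophil precursor sums with _d all lay above those with _d_2, the lymphoid and stem cell sums lay lower with little overlap, and the other sums overlapped. The part of these cells in the values of the 9 genes was not tested.

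Within single genotypes limma called none of the 9 genes between poly(I:C) and PBS, and neither edgeR nor DESeq2 called one, in fits without the replicate block. Of all genes limma called 0.0158% in WT and 0% in FancgKO, Mdm4Tg and FancgKO_Mdm4Tg. Pf4 had the smallest p in WT and Mdm4Tg and was below 0.05 unadjusted in these 2. Its log2 difference was 1.61 ± 0.70 in WT (n = 3 and 4), 1.06 ± 0.70 in FancgKO (n = 3 and 4), 2.47 ± 0.83 in Mdm4Tg (n = 2 and 3) and 1.22 ± 0.83 in FancgKO_Mdm4Tg (n = 2 and 3), with limma adjusted p = 0.281, 0.738, 0.290 and 0.665. The numbers were taken as pairs in WT under the rule given below, which does not tell a pair from a shared suffix. With the numbers as a block limma called 6.88% of all genes in WT. It called 16 of the 64 pathway genes, 6 of them higher, against 0 without the block. Pf4 in WT was then at 1.19 ± 0.38 (limma adjusted p = 0.0596) and Vwf at 0.85 ± 0.28 (limma adjusted p = 0.0678). In edgeR with the block both were called in WT, Pf4 at 1.16 and Vwf at 0.72 (edgeR adjusted p = 0.0124 and 0.0355). In the WT libraries numbered 6 and 7, Xist was high only with poly(I:C), as given above. In Mdm4Tg, limma with the block called Pf4 at 2.04 ± 0.45 (limma adjusted p = 0.0175), and edgeR with the block called Pf4 at 2.03 and Itgb3 at 0.63 (edgeR adjusted p = 0.00514 and 0.0489).

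The genotype comparisons asked whether the loss of Fancg or the Mdm4 transgene moves these genes. None of the 9 was called by limma, edgeR or DESeq2 in FancgKO against WT, with PBS or with poly(I:C), where 0% of all genes were called. The same held for FancgKO_Mdm4Tg against FancgKO with each treatment and for Mdm4Tg and FancgKO_Mdm4Tg against WT with PBS, with 0.00792% of all genes called in each. In these 6 comparisons none of the 9 had an unadjusted p below 0.05. The largest difference was that of Pf4 in Mdm4Tg against WT with PBS, at -1.26 ± 0.70 (n = 3 and 4, limma adjusted p = 0.999). For Pf4 in FancgKO against WT with PBS the difference was -0.07 ± 0.64 (n = 4 and 4, limma adjusted p = 0.999). In this fit, without the replicate block, a doubling in either direction lies within 2 standard errors. Vwf was at 0.83 ± 0.81 in the same comparison and fit (limma adjusted p = 0.999). Under the rule given below the numbers count as pairs there, so these standard errors also hold the spread between numbers. With the numbers as a block limma called none of the 9 in the genotype comparisons either. The standard errors of the block fit are not given here. A difference in the poly(I:C) response between genotypes was called for none of the 9, and for 0% of all genes, in FancgKO against WT, in Mdm4Tg against WT and in FancgKO_Mdm4Tg against FancgKO. For Pf4 these differences of responses were -0.55 ± 0.98, 0.86 ± 1.08 and 0.16 ± 1.08.

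The genes whose level followed each of the 9 most closely over the 24 libraries were taken from those with a mean normalised count of at least 50. These are descriptions over libraries that share treatment, suffix and number. Itga2b went with Vmp1 (Pearson's r = 0.962), Fosb (0.956) and Gm37352 (0.956), and Vwf with Vmp1 (0.932), Espl1 (0.925) and Rab44 (0.918). Nfe2 also followed Fosb (0.921) and Gm37352 (0.920), behind Jund (0.938), and Itgb3 followed Kif22 (0.930), Cd69 (0.924) and Rin3 (0.914). With group means and the suffix removed, r fell to 0.615 for Itga2b and Vmp1, 0.590 for Vwf and Vmp1, 0.632 for Nfe2 and Jund and 0.633 for Itgb3 and Kif22. Pf4 went with Timm50 (0.916), Cox4i1 (0.906) and Npm3 (0.905), and its r with Timm50 was 0.797 after the same removal. Fli1 had the loosest company among the well-read genes, Tbc1d15 (0.838), Usp25 (0.828) and Hnrnpk (0.814). For Fli1 and Tbc1d15 the r after removal was 0.913. The 3 sparsely read genes reached 0.815 for Gp1ba with Wdr83os, 0.791 for Gp1bb with Polr1e and 0.737 for Gp9 with Polr2e. Between the receptor chains Itga2b and Itgb3 r was 0.824 over the libraries and -0.485 with group means and suffix removed.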

How the data were processed

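Polyadenylated RNA of LSK cells was sequenced as 24 libraries in 8 groups (CATS RNA-seq kit, per the labels' protocols). The aligner STAR and the build mm10 come from the submitters' processing notes. Which tool counted and scaled the reads is not given in the sources used here. The deposited file holds 1 normalised signal value per gene and library, which the authors made from counts. Every value was a whole multiple of the smallest in its library (100% at a relative tolerance of 1e-06), so reads were recovered and their depth is 807686 to 8229715 a library. Of the 26267 genes, 16217 carry a symbol in the file and 10006 were named from the GENCODE annotation of mm10.

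The main fit used limma 3.58.1 under R 4.3.3, with its mean-variance trend and a mean for each of the 8 groups, on log2 of the normalised count plus 1. It took in the 12628 genes reaching 10 in 2 or more libraries. P-values were adjusted with Benjamini-Hochberg over all of them, with calls at 0.05, and a fold change on this scale is understated for low genes. The averaged contrast weighs the 4 genotypes equally. The recovered reads were tested with edgeR 4.0.16 and DESeq2 1.42.0. Other alternatives were pseudocounts, filters, TMM and quantile scaling, the replicate number as a block, the title suffix or Xist as a covariate, array weights, thinned reads and leaving out each library. The 9 genes and the lists were chosen with earlier results of these data known. The fits within a suffix, the suffix contrast and its interaction, the low-Xist libraries and the block with libraries left out were added after the data were seen. The fits were tested on simulated data.

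All 9 genes were named. Of the other pathway genes the text names up to 4 called per role and direction by smallest adjusted p, and Gata1 and Ppbp. The result of 1 gene is not reported here. Tubb1, Hba-a1 and Cd79a were named after their values were seen. Of each other marker list it names the 2 genes with the highest mean. Numbers were taken as pairs where at least 3 were shared and every correlation of deviations from the group means exceeded 0.1. This held for the poly(I:C) response of WT (0.231 to 0.448), for FancgKO and WT under PBS (0.218 to 0.528) and under poly(I:C) (0.392 to 0.617), and under PBS for Mdm4Tg and WT (0.293 to 0.378) and for FancgKO_Mdm4Tg and WT (0.248 to 0.389). Over the 9 pairs of the averaged contrast the lowest was 0.0528, so these were not treated as pairs. The poly(I:C) response of Mdm4Tg, with 2 shared numbers, did not meet the rule. Libraries of 1 suffix but different numbers were at -0.252 to 0.516, with a median of 0.243. The rule therefore cannot tell a pair from a shared suffix. Tables used pandas 2.3.3 and numpy 2.4.6 under python 3.11.15, and plots matplotlib 3.10.9.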

Additional observations from a re-analysis of the deposited data

Results flagged for a closer look

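In WT with PBS, Pf4 was at 126.5 in replicate 6, far above the other 3 libraries of the group (24.8 to 38.5). It was the 1 such gap in 18 sets of 4 libraries checked (9 genes in 2 groups), and chance gives about 1 in 20. All 4 libraries numbered 6 held Pf4 at 112.4 to 184.7, that of FancgKO with PBS at 124.2. Replicates 2 and 8 of WT with PBS are titled _d_2, and PBS libraries with that suffix held Pf4 at 52.7 at most.

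Some responses to poly(I:C) pointed in opposite directions in 2 genotypes in every pair of libraries of 1 number. Each genotype had only 2 or 3 such pairs, so patterns of this kind can arise by chance, and how many to expect was not worked out. Vwf was lower after poly(I:C) in both FancgKO pairs, by a log2 difference of -0.35 (replicate 6) and -0.46 (replicate 7). It was higher in every pair of WT, Mdm4Tg and FancgKO_Mdm4Tg, though in WT replicate 8 by only 0.009 (36.7 with PBS, 36.9 with poly(I:C)). Both FancgKO pairs are titled _d, and FancgKO had no pair with _d_2. Itga2b was lower in both FancgKO pairs, at -0.52 (replicate 6) and -0.16 (replicate 7), and higher in both Mdm4Tg pairs. Nfe2 was lower in the 3 WT pairs, at -0.097 (replicate 6), -0.063 (replicate 7) and -0.093 (replicate 8), and higher in both FancgKO pairs. In the test of the difference of responses between FancgKO and WT, Vwf was at -1.28 ± 1.24, Itga2b at -0.37 ± 0.94 and Nfe2 at 0.10 ± 0.25, and limma called none of them (unadjusted p = 0.315, 0.694 and 0.680). The same test for Vwf between FancgKO_Mdm4Tg and FancgKO gave 0.50 ± 1.37 (limma, unadjusted p = 0.721). FancgKO was not tested against Mdm4Tg.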

How the results depend on the processing

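Pf4 kept its rise with poly(I:C) under every alternative and lost its call in 1, the libraries titled _d alone (0.82). Of the 9 genes, the averaged contrast called 2 with the replicate block, quantile scaling, edgeR with the block or the suffix covariate, 3 with array weights (Pf4, Itgb3 and Vwf) and 0 with _d alone. Leaving out each library gave 1 to 2, with or without the block. Itgb3 passed with the block at 0.38 (limma adjusted p = 0.0129), and Gp1ba with quantile scaling at 0.73. In WT 2 passed in edgeR with the block, 1 with array weights and 0 to 1 with the block and a library left out. In Mdm4Tg 1 passed with the block, 2 in edgeR with the block, 1 with array weights and 0 to 1 with the block and a library left out. The suffix contrast called 4 with Xist as a covariate, 8 in edgeR, in DESeq2, with a pseudocount of 5 and without the trend, 9 with array weights (Fli1 as lower) and 7 to 8 with a library left out, where Gp1ba was added. The pathway count in WT, 0, became 16 with the block, 22 in edgeR with the block, 5 in DESeq2, 9 with the suffix covariate, 18 with array weights, 0 to 9 with a library left out (9 without WT_PBS replicate 6) and 5 to 13 with the block as well. In Mdm4Tg it became 13, 20 and, in DESeq2, 1, with array weights 13, 0 to 1 with a library left out (1 without Mdm4Tg_PBS replicate 7) and 0 to 14 with the block as well. In FancgKO_Mdm4Tg it became 1 and 2 with the block in limma and edgeR, and 0 to 2 with a library left out. The averaged count of 27 became 0 with _d alone and 35 with the block, which kept 26 of the 27 calls, and leaving out each library gave 19 to 30 without and 31 to 40 with the block. Over all genes the averaged contrast called 2974, and 5023 in edgeR with the block, 4860 with array weights and 1805 with thinned reads. Where no count or share of all genes is given for an alternative, its counts of the 9 and of the pathway genes cannot be set against all genes.

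Some estimates near 0 changed sign. Itga2b went to -0.019 with the block, and leaving out each library kept it at 0.18 to 0.58 without and -0.065 to 0.077 with the block. Nfe2 went to -0.022 with the block, -0.0019 with quantile scaling, -0.0072 in edgeR with the block, -0.013 with the suffix covariate, -0.019 with Xist as a covariate, -0.062 with _d_2 alone and -0.062 with low Xist, and to 0.0032 to 0.093 without and -0.047 to 0.013 with the block as libraries were left out. Gp1bb went to -0.28 with thinned reads and -0.31 with _d alone, and to 0.18 to 0.64 without and -0.17 to 0.24 with the block as libraries were left out. Gp9 ranged from 0.042 to 0.49 without and from -0.17 to 0.39 with the block as libraries were left out. In the suffix contrast Fli1 went to 0.012 with quantile scaling and Gp1ba to -0.063 with thinned reads. The causes were not tested. No block could be fitted to the suffix contrast, since each number carries 1 suffix. In limma the block changed no other call of the 9 genes.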
